A study of Homo sapiens with 9 samples.

Results

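The genes described here are 56 components of transforming growth factor beta (TGF-beta) superfamily signalling, followed across 3 culture media in human neural crest-like cells. They were chosen by gene symbol from the 25593 loci of each expression table. They comprise 25 ligands, 13 receptors, 6 SMAD proteins, 8 secreted antagonists and 4 latent TGF-beta binding proteins. Of the 56, 39 passed the filter on low values (FPKM of 1 or more in at least 3 of the 9 libraries), as did 13216 genes in all. FPKM is a fragment count normalized to transcript length and to the mapped fragments of the library. The other 17 were not tested. ACVR1C and NOG are given per library, and the rest by their highest values, some of them only as a group.

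H9, from which the cells were derived, is a long-used line of human embryonic stem cells. All cultures, controls included, had first been differentiated for 6 days with 10 µM SB431542, a small-molecule kinase inhibitor of TGFBR1, ACVR1B and ACVR1C. Neural crest-like cells were then sorted by surface markers and expanded on fibronectin under 5% oxygen. In group F_FSB, cells were grown for 4 passages in FSB and for 3 further passages in F. In group FSB, cells were grown with 5 to 10 ng/ml FGF2 and 3 to 5 µM SB431542. In group F, cells were grown with the same range of FGF2 and no SB431542 after the sort. Each group has 3 libraries, labelled as cultures 1 to 3 and harvested at passage 6 to 7. Per the treatment protocol, F_FSB and continued FSB cells were split from the same expanded population, so p-values measure the spread between these cultures. All cells derive from 1 line, and no library was made at the time of the sort.

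TGF-beta superfamily ligands are secreted dimers that bring together type II and type I receptor kinases on the cell surface. The type II receptor phosphorylates the type I receptor, which phosphorylates receptor SMADs. SMAD2 and SMAD3 follow TGF-beta, activin and Nodal receptors, SMAD1, SMAD5 and SMAD9 follow BMP receptors, and both sets join SMAD4 in the nucleus. TGF-beta ligands are stored in the matrix with latent binding proteins, and secreted antagonists bind BMPs or activins outside the cell. In neural crest, BMP signals take part in induction at the border of the neural plate, and TGF-beta signals take part in the formation of mesenchymal derivatives.

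FPKM sums were 361026 to 506146 per library. The tables hold no fragment counts, so depth could be estimated only roughly and in relative terms. F_FSB replicate 2 was the shallowest library, at 60% of the deepest, and the other 8 lay at 82.7% or more. The FSB libraries stood apart in summed neural crest markers, though not in each marker. The summed FPKM of 10 neural crest markers was 141 to 166 in F_FSB libraries, 429 to 465 in FSB libraries and 169 to 199 in F libraries, and 7 of the 10 passed the filter. NGFR, TFAP2A, ETS1 and TWIST1 were higher in FSB libraries than in all others. SOX9 (22.2 to 43.7 FPKM in FSB, 15.9 to 58.3 in F) and SNAI2 (66.1 to 71.2 in FSB, 53 to 70.8 in F) overlapped. TFAP2B averaged 14 FPKM in F_FSB, 8.56 in FSB and 6.51 in F. The defining crest gene SOX10 measured 0, 0 and 0.0171 FPKM in F_FSB, 0.0993, 0.0518 and 1.69 FPKM in FSB, and 0, 0.036 and 0.0173 FPKM in F, so that only FSB replicate 3 exceeded 1 FPKM. FOXD3 was at most 0.025 FPKM in any library. NGFR, which encodes the sort marker CD271, averaged 4.89 ± 3.01 FPKM in F_FSB, 120 ± 15.3 in FSB and 20 ± 20.4 in F (SD, n = 3 each). NT5E, which encodes CD73, averaged 63 ± 15 FPKM in F_FSB, 20 ± 9.37 in FSB and 72.9 ± 22.9 in F. The labels name CD73 as positive in the cell type and as negative in the sort. All 6 ectomesenchyme markers passed the filter, with sums of 310 to 444 FPKM in F_FSB, 266 to 335 in FSB and 361 to 429 in F. These sums hide opposite patterns, since ALX4 averaged 0.729 FPKM in F_FSB, 12.8 in FSB and 0.238 in F, while NT5E was lowest in FSB. Of other cell types, summed markers of immune cells reached at most 0.116 FPKM, those of definitive endoderm 0.191 FPKM and those of melanocytes 2.49 FPKM. Paraxial mesoderm markers summed to 0.662 to 7.45 FPKM in F_FSB, 4.78 to 6.43 in FSB and 2.92 to 43.5 in F, where MEOX1 was 43.2 FPKM in replicate 3. Glia and Schwann markers summed to 1.9 to 16.4 FPKM in F_FSB, 10.6 to 10.9 in FSB and 2.4 to 14.6 in F. Neuron markers summed to 2.11 to 12 FPKM in F_FSB, 2.54 to 10.7 in FSB and 1.31 to 4.46 in F. Smooth muscle markers summed to 30.2 to 209 FPKM in F_FSB, 35.7 to 60 in FSB and 26.5 to 50.2 in F. Nearly all of this was ACTA2 (29.5 to 208 FPKM in F_FSB). MYH11, the other smooth muscle marker, averaged 0.867 FPKM in F_FSB, 0.995 in FSB and 0.56 in F. Epithelial markers summed to 78.4 to 187 FPKM in F_FSB, 107 to 202 in FSB and 35.4 to 112 in F. The epithelial sums came from KRT8 and KRT18, while EPCAM and CDH1 did not pass the filter. Pluripotency markers summed to at most 11.1 FPKM, with 1 of 4 past the filter. In whole cultures, fewer cells of a type and less RNA per cell cannot be told apart, and the part of these marker differences in the results was not tested.

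The promoters of 3 members with large differences between media, 2 low in FSB cells (LTBP2 and INHBA) and 1 high in FSB cells (ACVR2B), are shown to display the sequence around their start sites. Each is 300 bases from RefSeq, 250 before to 50 after the annotated start, on GRCh38.p14, written 5′ to 3′ on the gene's strand. LTBP2 lies at chr14:74612188-74612487 on the minus strand, INHBA at chr7:41703041-41703340 on the minus strand and ACVR2B at chr3:38453640-38453939 on the plus strand. Capitals mark CAGAC, a core SMAD-binding motif, and GGCGCC, a GC-rich motif bound by SMADs of the BMP branch.
LTBP2: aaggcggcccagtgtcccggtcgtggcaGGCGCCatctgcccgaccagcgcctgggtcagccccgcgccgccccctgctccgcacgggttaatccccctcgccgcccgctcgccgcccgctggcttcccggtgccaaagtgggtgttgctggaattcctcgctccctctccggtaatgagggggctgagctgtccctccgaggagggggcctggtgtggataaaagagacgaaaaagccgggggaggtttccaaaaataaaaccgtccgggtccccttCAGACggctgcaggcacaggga
INHBA: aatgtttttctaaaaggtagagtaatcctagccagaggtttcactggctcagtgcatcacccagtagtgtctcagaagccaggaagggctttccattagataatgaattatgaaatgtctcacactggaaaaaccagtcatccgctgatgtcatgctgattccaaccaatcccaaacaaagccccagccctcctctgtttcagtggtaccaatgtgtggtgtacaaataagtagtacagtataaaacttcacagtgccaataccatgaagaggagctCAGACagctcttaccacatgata
ACVR2B: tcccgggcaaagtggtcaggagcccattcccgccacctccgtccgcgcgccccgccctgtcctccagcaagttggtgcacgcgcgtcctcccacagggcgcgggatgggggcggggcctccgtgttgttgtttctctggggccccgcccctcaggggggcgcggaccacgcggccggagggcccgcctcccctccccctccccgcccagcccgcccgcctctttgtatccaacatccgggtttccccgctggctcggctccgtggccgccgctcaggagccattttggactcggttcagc

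CAGAC was found once in the LTBP2 window, at position 29 after the start, and once in the INHBA window, at position 28. GGCGCC was found once in the LTBP2 window, at position −222, counted from the start. The ACVR2B window held neither motif, nor the AP-1 motif TGANTCA, and its GC content was 73.0%, against 67.0% for LTBP2 and 43.3% for INHBA. Both strands were searched, and the motifs do not overlap in these windows. Of the 56 genes, 46 had a promoter entry. CAGAC occurred in 22 of the 46 (47.8%) and in 45.0% of all 27305 promoters of this length, and TGANTCA in 4 of the 46 (8.7%) and in 7.76% of all. GGCGCC occurred in 16 of the 46 (34.8%) and in 19.0% of all.

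Differences were tested with limma on log2(FPKM + 1), with Benjamini-Hochberg adjustment over all 13216 genes and a threshold of 0.05. A log2 change on that scale understates the change of low genes. All 9 libraries shared an estimate of the spread for each gene. Leaving out a library of the medium not compared therefore changes the p-value of a comparison through that spread, and not its log2 change. Comparing FSB with F, which asks what the inhibitor did beside FGF2, 23 of the 39 tested members passed, 8 higher and 15 lower in FSB. That is 59.0% of them, beside 41.9% of all genes (28.5% higher and 13.4% lower). Comparing F_FSB with FSB, which asks what followed withdrawal of the inhibitor, 26 of the 39 passed, 17 higher and 9 lower in F_FSB. That is 66.7%, beside 41.8% of all genes (13.7% higher and 28.2% lower). Both comparisons use the FSB libraries, so their values for a gene are not independent. The counts include genes that passed the filter through F_FSB and F libraries alone (LTBP2, INHBA, GDF6, FST and BMPER) or FSB libraries alone (BMP7). For these genes some difference between FSB and the other media was a condition of being tested.

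The median log2 change over the 39 members was −0.63 in FSB against F, beside 0.14 over all genes, and 0.50 in F_FSB against FSB, beside −0.13. The shifts of all genes depend on the scaling of FPKM. With scaling by median ratios they were 0.01 and −0.00, and the share of calls that were higher in FSB than in F was 50.4%, beside 68.0% as deposited. That share was 53.2% with quantile normalization and 61.6% with scaling to the same sum. The share of calls that were higher in F_FSB than in FSB was 32.7% as deposited, 48.8% with median ratios, 45.7% with quantile normalization and 25.4% with scaling to the same sum, where the median of all genes was −0.21. Some of the small changes below are therefore also given after subtracting the all-gene median.

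**Figure D1:**
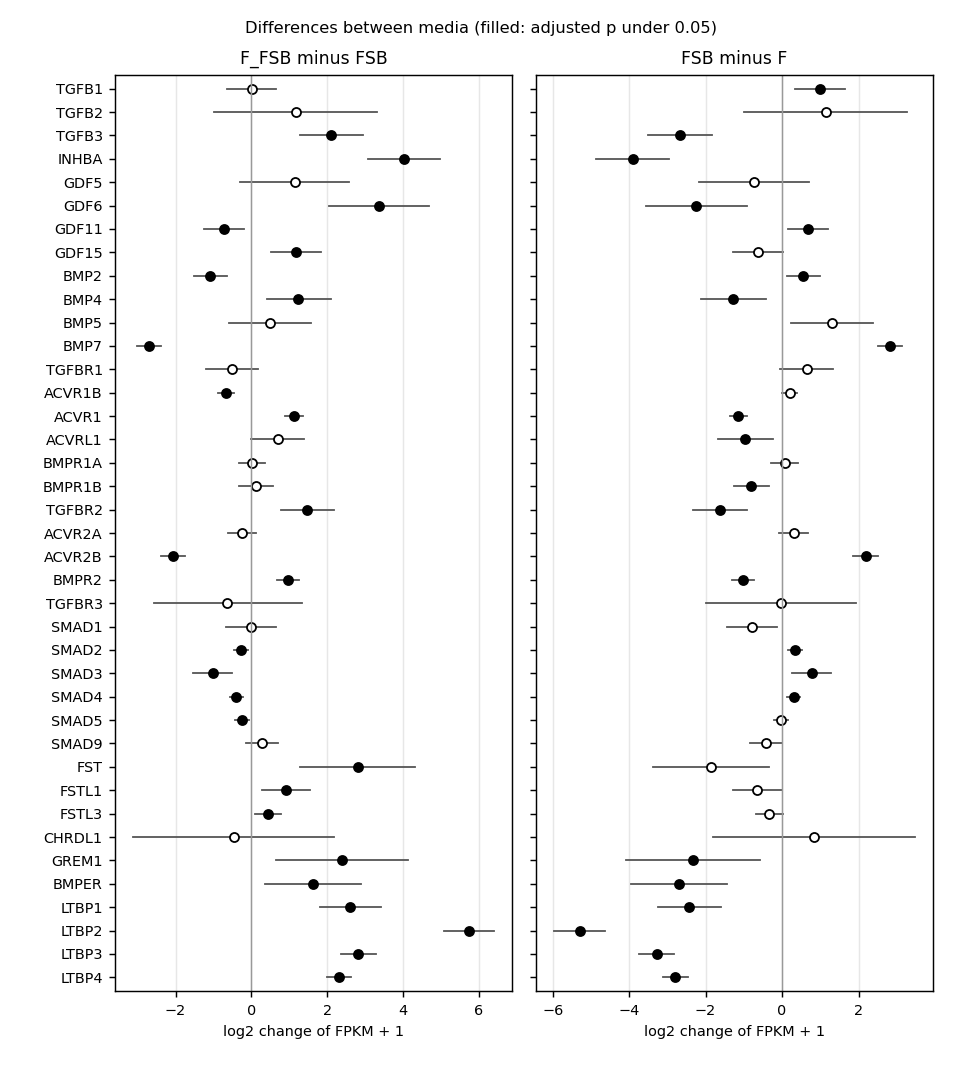
Log2 change of FPKM + 1 for each of the 39 tested members, F_FSB minus FSB on the left and FSB minus F on the right. Points are limma estimates, lines are 95% confidence intervals and filled points have an adjusted p under 0.05. LTBP2 lies farthest from 0 in both panels, at 5.74 and −5.29.

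All 4 latent TGF-beta binding proteins, matrix glycoproteins of which LTBP1, LTBP3 and LTBP4 bind latent TGF-beta, were lower in FSB than in either other medium. Over all genes, 13.4% were lower in FSB than in F and 13.7% were higher in F_FSB than in FSB. Their summed FPKM was 230 ± 45.8 in F_FSB, 23 ± 4.25 in FSB and 219 ± 13.7 in F (SD, n = 3 each). LTBP2, a microfibril-associated member that does not bind latent TGF-beta, showed the largest change of the 39 members (GRCh37, chromosome 14, 74964886 to 75079034). Values below are for replicates 1, 2 and 3 in that order, and coordinates are gene spans, introns included, on GRCh37 as in the deposited tables. LTBP2 measured 71.6, 93.1 and 51.5 FPKM in F_FSB libraries, 0.395, 0.335 and 0.257 FPKM in FSB libraries, and 58.3, 69.6 and 32.6 FPKM in F libraries. Every FSB library was under 1 FPKM and every other library was over 30, so LTBP2 passed the filter through the other media alone. The change was −5.29 (SE 0.29, limma adjusted p = 3.13e-05) in FSB against F and 5.74 (SE 0.29, limma adjusted p = 2.25e-05) in F_FSB against FSB. On the FPKM scale the F_FSB mean was 219 times the FSB mean, and the F mean was 163 times it.

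LTBP1 (chromosome 2, 33172369 to 33624576) measured 54.9, 79.4 and 147 FPKM in F_FSB, 16.5, 16.2 and 8.64 FPKM in FSB, and 80.3, 72.4 and 75.1 FPKM in F. LTBP3 (chromosome 11, 65306030 to 65325699) measured 33.9, 38.6 and 47.7 FPKM in F_FSB, 4.75, 3.73 and 5.98 FPKM in FSB, and 43.6, 59.4 and 63.3 FPKM in F. LTBP4 (chromosome 19, 41099072 to 41135725) measured 19.9, 27.6 and 24.4 FPKM in F_FSB, 4.64, 4.21 and 3.3 FPKM in FSB, and 34, 31.9 and 35.2 FPKM in F. For each of these genes the FSB libraries lay below every other library, with no overlap. In FSB against F the log2 change was −2.43 for LTBP1 (limma adjusted p = 0.00151), −3.28 for LTBP3 (limma adjusted p = 4.7e-05) and −2.79 for LTBP4 (limma adjusted p = 1.92e-05). In F_FSB against FSB it was 2.61 for LTBP1 (limma adjusted p = 0.00109), 2.82 for LTBP3 (limma adjusted p = 0.000101) and 2.30 for LTBP4 (limma adjusted p = 4.99e-05). LTBP1 made up 39.4% of the summed LTBP level in F_FSB and 58.8% in FSB, while LTBP2 made up 32.6% in F_FSB and 1.43% in FSB.

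**Figure D2:**
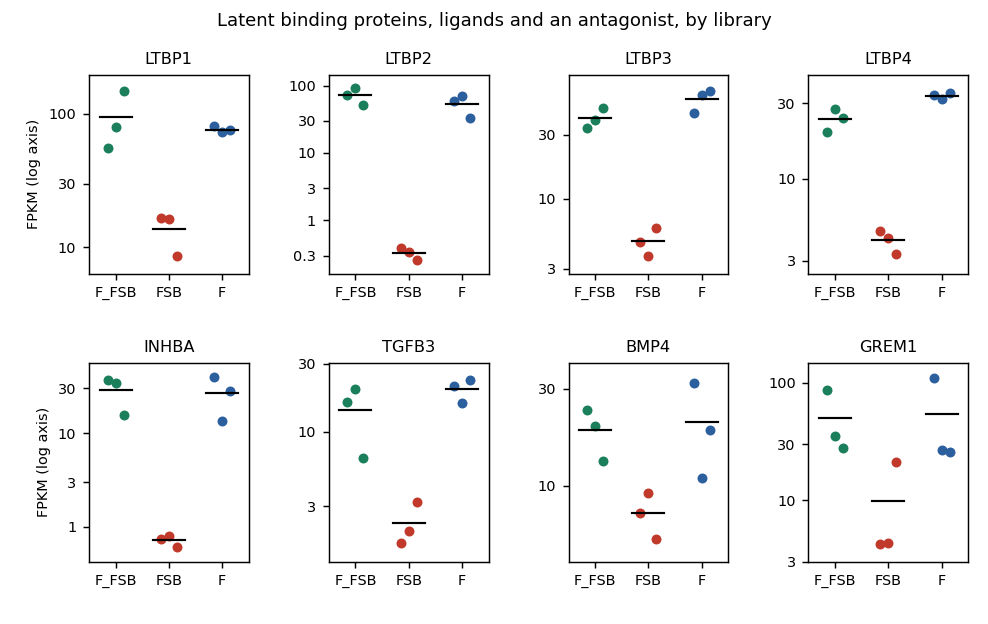
FPKM per library (log axes that do not start at 0) of the 4 latent binding proteins, the ligand genes INHBA, TGFB3 and BMP4 and the BMP antagonist GREM1, in F_FSB, FSB and F. Points are replicates 1 to 3 from left to right and bars are group means. For each gene all 3 FSB points lie below all points of the other media. GREM1 in FSB replicate 3 (21 FPKM) stands apart from the other FSB points.

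The 3 TGF-beta ligand genes differed from each other in their pattern over the media. TGFB1 (chromosome 19, 41836812 to 41859831), the most widely expressed isoform, measured 65.2, 49.3 and 30.8 FPKM in F_FSB, 41.8, 49.6 and 46.8 FPKM in FSB, and 31.6, 20.6 and 17.9 FPKM in F. FSB libraries lay above F libraries, while F_FSB overlapped with both. TGFB1 was higher in FSB than in F by 0.99 (SE 0.28, limma adjusted p = 0.0243), or 0.85 relative to the all-gene median. In F_FSB against FSB the change was 0.01 (limma adjusted p = 0.977). The call in FSB against F was lost without any 1 FSB library and without F replicate 2 or 3, at limma adjusted p of 0.0517 to 0.0765. Its FPKM lay outside Cufflinks' own interval in 4 libraries.

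TGFB3 (chromosome 14, 76424442 to 76448092), an isoform linked to palate fusion, measured 16.1, 19.8 and 6.59 FPKM in F_FSB, 1.65, 2.02 and 3.21 FPKM in FSB, and 20.8, 15.8 and 23.1 FPKM in F. The FSB libraries were the lowest 3 of the 9. TGFB3 was lower in FSB than in F, with a log2 change of −2.68 (SE 0.36, limma adjusted p = 0.00112) and higher in F_FSB than in FSB by 2.11 (limma adjusted p = 0.00286). TGFB2 (chromosome 1, 218518676 to 218617961) measured 129, 51.9 and 50.1 FPKM in F_FSB, 33.4, 37.1 and 22.6 FPKM in FSB, and 76.9, 6.4 and 4.05 FPKM in F. One F library, replicate 1, stood far above the other F libraries, and replicate 1 was also the highest F_FSB library. TGFB2 did not pass in FSB against F (1.14, limma adjusted p = 0.358) or in F_FSB against FSB (1.17, limma adjusted p = 0.346). Without F replicate 1 it passed in both, at 2.36 (limma adjusted p = 0.0065) and 1.17 (limma adjusted p = 0.0465). The second log2 change was the same as before, because F replicate 1 bears on F_FSB against FSB only through the shared spread.

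As shares of the summed FPKM of the 3 TGF-beta genes, TGFB1 was 35.7% ± 4.9 in F_FSB, 58.2% ± 5.42 in FSB and 37.4% ± 12.1 in F (SD, n = 3 each). TGFB2 was 53.8% ± 9.69 in F_FSB, 38.8% ± 6.69 in FSB and 27.8% ± 27.6 in F. TGFB3 was 10.5% ± 5.05 in F_FSB, 2.95% ± 1.28 in FSB and 34.8% ± 17.7 in F. TGFB1 and TGFB2 carried nearly all of the TGF-beta ligand level in FSB and most of it in F_FSB, and TGFB3 had its highest mean share in F. No test was run on shares. Their summed FPKM was 140 ± 63.4 in F_FSB, 79.4 ± 8.32 in FSB and 72.4 ± 49.3 in F.

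**Figure D3:**
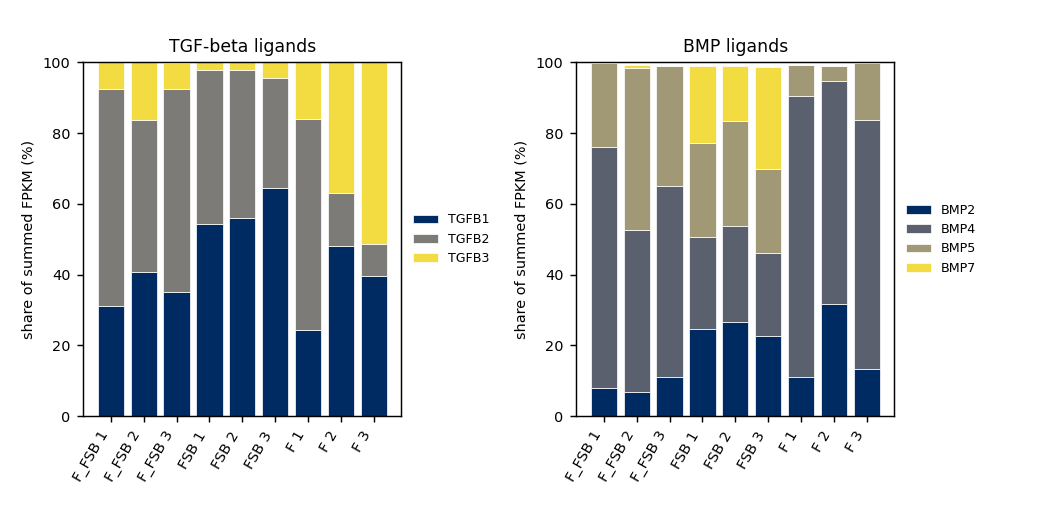
Share of summed FPKM (%) per library for TGF-beta ligand genes (left) and BMP ligand genes (right; BMP3, BMP6, BMP8A and BMP8B, which fill the remainder, are not drawn), with F_FSB, FSB and F from left to right. TGFB3 is the smallest part in each FSB and F_FSB library and in F replicate 1, and BMP7 is a visible part in the FSB libraries, at a mean of 22.1%.

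INHBA, which encodes the subunit that forms activin A, was the only one of the 7 activin, inhibin, Nodal and Lefty genes that passed the filter. It lies on chromosome 7, 41728601 to 41742706, and its span overlaps the locus LOC285954. INHBA measured 37, 33.8 and 15.6 FPKM in F_FSB, 0.736, 0.791 and 0.616 FPKM in FSB, and 39.5, 13.3 and 28.2 FPKM in F. All FSB libraries were under 1 FPKM and the other 6 were over 13, so INHBA passed the filter through those 6 alone. The log2 change was −3.91 (SE 0.41, limma adjusted p = 0.000423) in FSB against F and 4.03 (limma adjusted p = 0.000379) in F_FSB against FSB. On the FPKM scale the F_FSB mean was 40.3 times the FSB mean and the F mean was 37.8 times it. Its FPKM lay outside Cufflinks' own interval in 1 library. INHBA made up 98.5% of the summed activin and inhibin subunit level in F_FSB, 67.7% in FSB and 99% in F. INHA was at most 0.334 FPKM and INHBB at most 0.156 FPKM in any library. NODAL, a ligand of early embryonic patterning, was at most 0.149 FPKM, and its inhibitors LEFTY1 and LEFTY2, near-identical copies, at most 0.477 FPKM.

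Among the growth differentiation factor genes, GDF6 and GDF11 moved in opposite directions. GDF6 (chromosome 8, 97154558 to 97173020), a BMP-type ligand of joint and eye development, measured 10.6, 11.9 and 28 FPKM in F_FSB, 0.604, 0.525 and 0.614 FPKM in FSB, and 10.8, 11.5 and 1.85 FPKM in F. Every FSB library was below every other library, with F replicate 3 the closest. GDF6 was lower in FSB than in F, with a log2 change of −2.24 (SE 0.57, limma adjusted p = 0.0156) and higher in F_FSB than in FSB by 3.37 (limma adjusted p = 0.00272). Without F replicate 2 the change in FSB against F was −1.87 (limma adjusted p = 0.0527).

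GDF11 (chromosome 12, 56137064 to 56146665), an activin-type ligand that signals through SMAD2 and SMAD3, measured 10.5, 11.6 and 15 FPKM in F_FSB, 18.8, 16.2 and 29.3 FPKM in FSB, and 10.4, 14.8 and 12.8 FPKM in F. The FSB libraries were the highest 3, and FSB replicate 3 was the highest of all. GDF11 was higher in FSB than in F by 0.69 (limma adjusted p = 0.0414), or 0.55 relative to the all-gene median. It was lower in F_FSB than in FSB, with a log2 change of −0.72 (limma adjusted p = 0.0351). Both calls were lost with median-ratio scaling, at 0.54 (limma adjusted p = 0.0954) in FSB against F and −0.58 (limma adjusted p = 0.0787) in F_FSB against FSB. They were also lost without FSB replicate 3, at 0.45 (limma adjusted p = 0.099) and −0.48 (limma adjusted p = 0.0828). Of the 17 alternatives, 11 ended the call in FSB against F and 9 ended that in F_FSB against FSB, among them, for both, leaving out F_FSB replicate 1 or 2, FSB replicate 1 or F replicate 3 and, for the first, F replicate 1.

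GDF15, a stress-responsive ligand, was 3.31 to 6.45 FPKM in F_FSB, 1.02 to 2.07 in FSB and 1.73 to 4.06 in F. It was higher in F_FSB than in FSB by 1.19 (SE 0.28, limma adjusted p = 0.0114), while FSB against F did not pass (−0.63, limma adjusted p = 0.108). GDF5, a joint-forming ligand, was 3.49 to 8.02 FPKM in F_FSB, 0.162 to 3.49 in FSB and 1.07 to 6.05 in F, and passed in neither comparison.

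The BMP genes split by medium as well. BMP4 (chromosome 14, 54416454 to 54423554), which takes part in dorsal patterning and in facial mesenchyme, measured 23.7, 19.8 and 13.3 FPKM in F_FSB, 7.36, 9.24 and 5.46 FPKM in FSB, and 32, 11 and 18.8 FPKM in F. All FSB libraries were below all others. BMP4 was lower in FSB than in F, with a log2 change of −1.28 (SE 0.37, limma adjusted p = 0.0245) and higher in F_FSB than in FSB by 1.24 (limma adjusted p = 0.0264). The first call was lost without FSB replicate 1 or 3 or F replicate 1 or 3, at limma adjusted p of 0.0559 to 0.0766. The second was lost without F_FSB replicate 1 or 2 or FSB replicate 1 or 3, at limma adjusted p of 0.0637 to 0.0839. Without F replicate 1, the highest F library, the change in FSB against F was −0.91 (limma adjusted p = 0.0559).

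BMP7 (chromosome 20, 55743809 to 55841707), a ligand of kidney, eye and skeletal development, measured 0, 0.296 and 0 FPKM in F_FSB, 6.17, 5.39 and 6.74 FPKM in FSB, and 0.0142, 0 and 0 FPKM in F. It was listed at or near 0 in all 6 libraries without inhibitor at harvest. BMP7 passed the filter through the FSB libraries alone, so it had to differ. The limma values were 2.82 (adjusted p = 1.92e-05) in FSB against F and −2.70 (adjusted p = 2.44e-05) in F_FSB against FSB, both set in size by the pseudocount.

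BMP2 (chromosome 20, 6748745 to 6760910), an osteogenic ligand close to BMP4 in sequence, measured 2.75, 2.89 and 2.67 FPKM in F_FSB, 6.97, 9.11 and 5.31 FPKM in FSB, and 4.42, 5.59 and 3.54 FPKM in F. FSB and F libraries overlapped, and the F_FSB libraries lay below all others. BMP2 was lower in F_FSB than in FSB, with a log2 change of −1.08 (SE 0.19, limma adjusted p = 0.00299). In FSB it was above F by 0.55 (limma adjusted p = 0.0467), or 0.41 relative to the all-gene median, and 12 of the 17 alternatives ended that call. Median-ratio scaling gave 0.42 (limma adjusted p = 0.129), and leaving out any 1 library other than FSB replicate 3 or F replicate 2 gave limma adjusted p of 0.0583 to 0.145.

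BMP5 was 8.18 to 19.8 FPKM in F_FSB, 5.6 to 10.2 in FSB and 0.778 to 4.22 in F. It did not pass in FSB against F (1.31, limma adjusted p = 0.0532) or in F_FSB against FSB (0.50, limma adjusted p = 0.42). In FSB against F it passed without F replicate 3 (1.61, limma adjusted p = 0.0439). It also passed at the same log2 change of 1.31 without F_FSB replicate 2 (limma adjusted p = 0.0345), which bears on this comparison only through the shared spread. Summed BMP FPKM was 34.2 ± 9.32 in F_FSB, 28.7 ± 5.41 in FSB and 28.1 in F, with BMP4 at 56.1%, 25.4% and 71% of it in these media. BMP2 made up 8.49% in F_FSB, 24.6% in FSB and 18.7% in F.

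Of the 3 type I receptors that SB431542 blocks, TGFBR1, the TGF-beta receptor kinase, was the most abundant at the RNA level. TGFBR1 (chromosome 9, 101867412 to 101916474) measured 21.1, 19.9 and 12.1 FPKM in F_FSB, 24.6, 25.5 and 24.8 FPKM in FSB, and 25.8, 12.8 and 11.5 FPKM in F. FSB libraries lay within 1 FPKM of each other, while F replicate 1 was above them and the other F libraries well below. The change was 0.64 (95% confidence interval −0.05 to 1.33, limma adjusted p = 0.122) in FSB against F and −0.51 (limma adjusted p = 0.204) in F_FSB against FSB. Without F replicate 1 FSB against F gave 0.98 (limma adjusted p = 0.0125).

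ACVR1B (chromosome 12, 52345451 to 52390863), a receptor kinase for activin and Nodal, measured 5.14, 5.14 and 5.05 FPKM in F_FSB, 8.28, 8.21 and 9.55 FPKM in FSB, and 6.7, 7.85 and 7.77 FPKM in F. The 3 media did not overlap, with F_FSB lowest, F between and FSB highest. ACVR1B was lower in F_FSB than in FSB, with a log2 change of −0.66 (SE 0.09, limma adjusted p = 0.00108), or −0.53 relative to the all-gene median. FSB against F did not pass (0.20, 95% confidence interval −0.01 to 0.40, limma adjusted p = 0.108). ACVR1C, a related receptor, measured 0.0633, 0.0273 and 0.0278 FPKM in F_FSB, 0.00536, 0.0168 and 0.0114 FPKM in FSB, and 0.0257, 0.108 and 0.0728 FPKM in F. It was under the filter and was not tested.

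The type I receptors of the BMP branch, which are not targets of SB431542, included 3 members that were lower in FSB than in F. Over all genes that share was 13.4%. ACVR1 (chromosome 2, 158592958 to 158732374) measured 19.3, 20 and 16.6 FPKM in F_FSB, 8.23, 8.53 and 7.25 FPKM in FSB, and 19.5, 19.7 and 17.4 FPKM in F. FSB libraries lay at under 9 FPKM and all others at over 16. ACVR1 was lower in FSB than in F, with a log2 change of −1.14 (SE 0.10, limma adjusted p = 0.000185) and higher in F_FSB than in FSB by 1.12 (limma adjusted p = 0.000221).

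ACVRL1, known best from endothelial cells, measured 2.41, 4.95 and 6.88 FPKM in F_FSB, 1.79, 2.22 and 3.19 FPKM in FSB, and 4.79, 7.21 and 4.86 FPKM in F. FSB lay below F but overlapped with F_FSB. Summed FPKM of 4 endothelial markers was 1.35 to 5.05 in F_FSB, 3.83 to 4.66 in FSB and 2.5 to 5.51 in F. ACVRL1 was lower in FSB than in F, with a log2 change of −0.96 (SE 0.31, limma adjusted p = 0.0366). That call was lost without FSB replicate 1 or 2 or any 1 F library, at limma adjusted p of 0.0558 to 0.114. F_FSB against FSB did not pass (0.69, limma adjusted p = 0.103), but did without F_FSB replicate 1 (1.03, limma adjusted p = 0.0144).

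BMPR1B, a receptor of cartilage formation, was 1.51 to 1.99 FPKM in F_FSB, 1.02 to 1.82 in FSB and 2.41 to 4.47 in F. It was lower in FSB than in F, with a log2 change of −0.80 (SE 0.20, limma adjusted p = 0.0138) and did not pass in F_FSB against FSB (0.12, limma adjusted p = 0.641). BMPR1A, the broadly expressed BMP receptor, was 14.3 to 22 FPKM in F_FSB, 15.7 to 19.2 in FSB and 15.7 to 16.3 in F, with changes of 0.07 in FSB against F and 0.01 in F_FSB against FSB. The summed FPKM of the 7 type I receptors was 65.3 ± 8.77 in F_FSB, 62.6 ± 2.31 in FSB and 68.3 ± 6.33 in F. TGFBR1 made up 26.8% of it in F_FSB, 39.9% in FSB and 24% in F, and ACVR1 28.6% in F_FSB, 12.8% in FSB and 27.7% in F.

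Type II receptors also split. TGFBR2 (chromosome 3, 30647994 to 30735634), the TGF-beta type II receptor, measured 57.7, 51.4 and 32.7 FPKM in F_FSB, 14.3, 14 and 20.4 FPKM in FSB, and 35.1, 74.8 and 52.1 FPKM in F. BMPR2 (chromosome 2, 203241050 to 203432474), the BMP type II receptor, measured 28.7, 26.8 and 22.4 FPKM in F_FSB, 13.3, 12.9 and 12.1 FPKM in FSB, and 32.1, 24 and 25.8 FPKM in F. For both, the FSB libraries lay below every other library. TGFBR2 was lower in FSB than in F, with a log2 change of −1.63 (SE 0.30, limma adjusted p = 0.0042) and higher in F_FSB than in FSB by 1.47 (limma adjusted p = 0.0062). BMPR2 was lower in FSB than in F, with a log2 change of −1.03 (SE 0.13, limma adjusted p = 0.000771) and higher in F_FSB than in FSB by 0.97 (limma adjusted p = 0.000993).

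ACVR2B (chromosome 3, 38495790 to 38534633), an activin type II receptor that also binds GDF11, went the other way. It measured 1.9, 2.01 and 1.26 FPKM in F_FSB, 11.2, 9.35 and 10.4 FPKM in FSB, and 1.67, 1.59 and 1.2 FPKM in F. The FSB libraries were all above 9 FPKM and the other 6 near 1 to 2. The change was 2.19 (SE 0.14, limma adjusted p = 5.82e-05) in FSB against F and −2.06 (limma adjusted p = 9.01e-05) in F_FSB against FSB, and on the FPKM scale the FSB mean was 6.92 times the F mean and 5.98 times the F_FSB mean. The span of ACVR2B overlaps the locus LOC100128640, and use of strand in counting was not given in the sources used here. Its near relative ACVR2A was 2.04 to 3.48 FPKM in F_FSB, 3.13 to 4.06 in FSB and 2.26 to 2.91 in F and passed in neither comparison (0.30 in FSB against F, limma adjusted p = 0.168).

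TGFBR3, or betaglycan, a co-receptor that presents TGF-beta and inhibin, was 3.24 to 27.5 FPKM in F_FSB, 16.3 to 22.3 in FSB and 5.17 to 49.8 in F. It varied more between libraries of a medium than between media in F_FSB and F, and passed in neither comparison (−0.02 in FSB against F, limma adjusted p = 0.987). The Nodal co-receptor gene TDGF1, which has pseudogene copies, was at most 0.0297 FPKM.

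**Figure D4:**
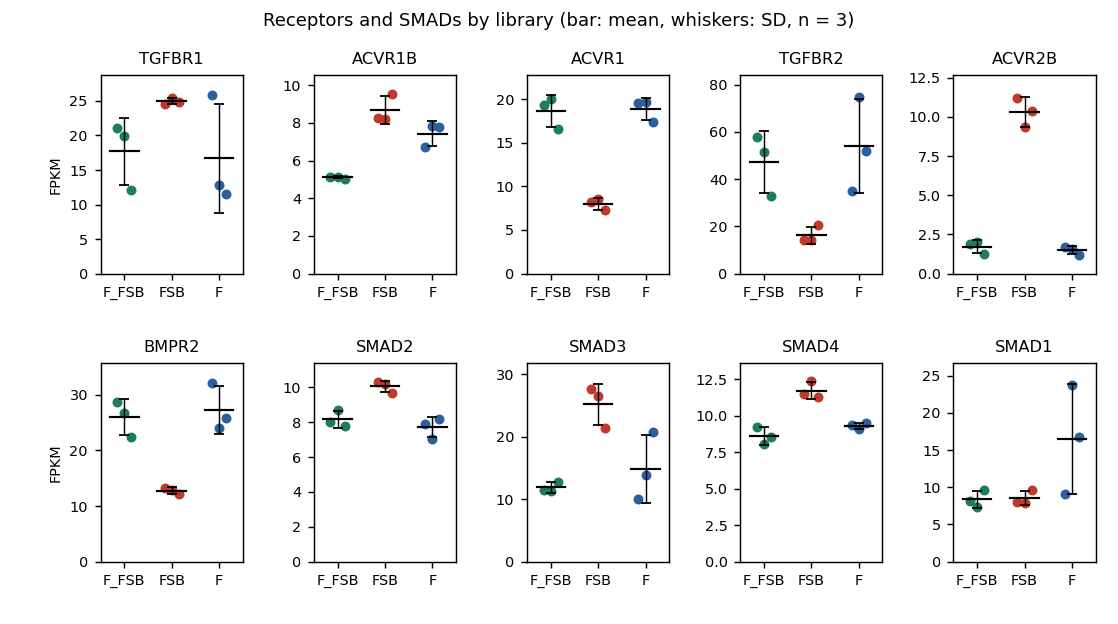
FPKM per library of 6 receptors and 4 SMADs in F_FSB, FSB and F, with axes from 0. Points are replicates 1 to 3 from left to right, bars are group means and whiskers are SD (n = 3). ACVR2B stands at 9.35 FPKM or more in FSB alone, while ACVR1, TGFBR2 and BMPR2 are lowest in FSB.

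Receptor SMADs of the activin and TGF-beta branch were higher in FSB than in the other media. SMAD3 (chromosome 15, 67358195 to 67487533) measured 11.5, 11.3 and 12.8 FPKM in F_FSB, 27.6, 26.5 and 21.4 FPKM in FSB, and 10, 13.8 and 20.7 FPKM in F. FSB libraries were the highest, with F replicate 3 just below them. SMAD3 was lower in F_FSB than in FSB, with a log2 change of −1.02 (SE 0.22, limma adjusted p = 0.00776). In FSB it was above F by 0.77 (SE 0.22, limma adjusted p = 0.0248), or 0.63 relative to the all-gene median. That call was lost with median-ratio scaling (0.63, limma adjusted p = 0.0641), quantile normalization (limma adjusted p = 0.058) and scaling to the same sum (limma adjusted p = 0.0566). It was also lost without FSB replicate 1 or 2 or F replicate 1 or 2, at limma adjusted p of 0.052 to 0.0802.

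SMAD2 measured 7.99, 8.72 and 7.8 FPKM in F_FSB, 10.3, 10.2 and 9.7 FPKM in FSB, and 7.92, 7.05 and 8.16 FPKM in F. The shared partner SMAD4 measured 9.26, 8.05 and 8.57 FPKM in F_FSB, 11.5, 12.4 and 11.3 FPKM in FSB, and 9.35, 9.12 and 9.53 FPKM in F. For both, the FSB libraries lay above all others by a small margin. In FSB against F the change was 0.35 for SMAD2 (limma adjusted p = 0.0106) and 0.30 for SMAD4 (limma adjusted p = 0.0151), or 0.21 and 0.16 relative to the all-gene median. Neither passed with median-ratio scaling (SMAD2, limma adjusted p = 0.0629, and SMAD4, limma adjusted p = 0.162) or with scaling to the same sum (SMAD2, limma adjusted p = 0.101, and SMAD4, limma adjusted p = 0.26). SMAD4 also did not pass with quantile normalization (limma adjusted p = 0.112) or without FSB replicate 2 (0.26, limma adjusted p = 0.0597). In F_FSB against FSB the change was −0.40 for SMAD4 (limma adjusted p = 0.00407) and −0.27 for SMAD2 (limma adjusted p = 0.0271), or −0.27 and −0.14 relative to the all-gene median. The SMAD2 call there was lost with median-ratio scaling (−0.14, limma adjusted p = 0.19) and without F_FSB replicate 1 or 3 or FSB replicate 1 or 2, at limma adjusted p of 0.0712 to 0.0848.

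Of the SMADs of the BMP branch, SMAD1 measured 8.15, 7.37 and 9.65 FPKM in F_FSB, 8.02, 7.87 and 9.58 FPKM in FSB, and 9.04, 23.8 and 16.7 FPKM in F. F replicates 2 and 3 stood above the other 7 libraries. The change was −0.79 in FSB against F (limma adjusted p = 0.056), and without F replicate 1 it was −1.15 (limma adjusted p = 0.0034). With median-ratio scaling it was −0.93 (limma adjusted p = 0.0395).

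SMAD5 measured 11.3, 11.3 and 11.1 FPKM in F_FSB, 13.3, 13.7 and 13.6 FPKM in FSB, and 12.6, 13.8 and 15.5 FPKM in F. F_FSB libraries lay below all others by a small margin. SMAD5 was lower in F_FSB than in FSB, with a log2 change of −0.25 (limma adjusted p = 0.0403), or −0.12 relative to the all-gene median, and 11 of the 17 alternatives ended that call, among them median-ratio scaling (−0.11, limma adjusted p = 0.315) and leaving out any 1 library of F_FSB or FSB or F replicate 2. SMAD9 measured 2.88, 2.51 and 2.19 FPKM in F_FSB, 1.95, 2.1 and 1.63 FPKM in FSB, and 2.74, 2.02 and 4.01 FPKM in F. It passed in neither comparison (−0.41 in FSB against F, limma adjusted p = 0.106), but passed in FSB against F without F replicate 2 (−0.59, limma adjusted p = 0.0329).

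Of the 8 secreted antagonists, 6 were tested. In F_FSB against FSB, 5 were higher, beside 13.7% of all genes. In FSB against F, 2 were lower, beside 13.4% of all genes. The F_FSB against FSB calls of FSTL1, FSTL3, GREM1 and BMPER were each lost under some of the 17 alternatives, and that of FST under none. FST, or follistatin, which binds activin, measured 1.62, 8.39 and 17.5 FPKM in F_FSB, 0.135, 0.0844 and 0.0859 FPKM in FSB, and 5.92, 1.48 and 2.71 FPKM in F. The FSB libraries were all under 0.2 FPKM and all others over 1. FST was higher in F_FSB than in FSB by 2.80 (SE 0.66, limma adjusted p = 0.0106). FSB against F did not pass (−1.86, limma adjusted p = 0.052). It passed at the same log2 change without F_FSB replicate 1 (limma adjusted p = 0.0101) or 3 (limma adjusted p = 0.0251). These libraries bear on FSB against F only through the shared spread. It also passed in a fit of FSB and F only (−1.86, limma adjusted p = 0.00853), with scaling to the same sum (−1.91, limma adjusted p = 0.0477) and with a pseudocount of 0.1 (−3.90, limma adjusted p = 0.0068).

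GREM1 (chromosome 15, 33010205 to 33026870), or gremlin, which binds BMP2 and BMP4, measured 86.9, 35 and 27.6 FPKM in F_FSB, 4.25, 4.36 and 21 FPKM in FSB, and 109, 26.7 and 25.5 FPKM in F. Replicate 1 was the highest in both F_FSB and F, and FSB replicate 3 stood apart from the other FSB libraries. GREM1 was lower in FSB than in F, with a log2 change of −2.34 (SE 0.76, limma adjusted p = 0.0384) and higher in F_FSB than in FSB by 2.40 (limma adjusted p = 0.035). The first call was lost without FSB replicate 1 or 2 or F replicate 1 or 2, at limma adjusted p of 0.0525 to 0.121. The second was lost without F_FSB replicate 1 or 2 or FSB replicate 1 or 2, at limma adjusted p of 0.0567 to 0.113.

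BMPER, a secreted BMP modulator, measured 2.03, 6.33 and 0.599 FPKM in F_FSB, 0.11, 0.0431 and 0.0438 FPKM in FSB, and 4.7, 11.6 and 3.55 FPKM in F. FSB libraries lay below the rest. BMPER was lower in FSB than in F, with a log2 change of −2.70 (SE 0.55, limma adjusted p = 0.00624) and higher in F_FSB than in FSB by 1.63 (limma adjusted p = 0.0447). The second call was lost without F_FSB replicate 1 or 2, any 1 FSB library or F replicate 1, at limma adjusted p of 0.058 to 0.107. The change without F_FSB replicate 2 was 1.05. That call was also lost with no filter (limma adjusted p = 0.119), with quantile normalization (limma adjusted p = 0.0538) and in a fit of the compared groups only (limma adjusted p = 0.0502).

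FSTL1, a follistatin-like glycoprotein of mesenchyme and by far the highest of the 39, measured 899, 762 and 979 FPKM in F_FSB, 533, 591 and 320 FPKM in FSB, and 979, 654 and 605 FPKM in F. Its values lay outside Cufflinks' own interval in 7 libraries. FSB libraries lay below all others. FSTL1 was higher in F_FSB than in FSB by 0.91 (SE 0.28, limma adjusted p = 0.0299) and did not pass in FSB against F (−0.65, limma adjusted p = 0.0934). The call was lost without F_FSB replicate 1 or 3 or FSB replicate 1 or 3, at limma adjusted p of 0.052 to 0.0832. It was also lost with quantile normalization (limma adjusted p = 0.0592) and with scaling to the same sum (limma adjusted p = 0.0711). FSTL3, another activin-binding protein, was 3.98 to 5.18 FPKM in F_FSB, 2.43 to 3.52 in FSB and 3.36 to 4.56 in F. It was higher in F_FSB than in FSB by 0.44 (limma adjusted p = 0.044), a call that 10 of the 17 alternatives ended, among them leaving out any 1 library other than F_FSB replicate 2 or F replicate 3.

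CHRDL1, a chordin-like BMP antagonist, was 3.67 to 43.9 FPKM in F_FSB, 16 to 25.1 in FSB and 2.7 to 73.2 in F. Replicate 2 was the highest in both F_FSB and F, and CHRDL1 passed in neither comparison (0.84 in FSB against F, limma adjusted p = 0.588). NOG, or noggin, which binds BMPs, was not tested and measured 0.492, 0.398 and 0.0809 FPKM in F_FSB, 1.9, 2.2 and 0.664 FPKM in FSB, and 0.0964, 0.113 and 0.0816 FPKM in F. CHRD, or chordin, was at most 0.923 FPKM.

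**Figure D5:**
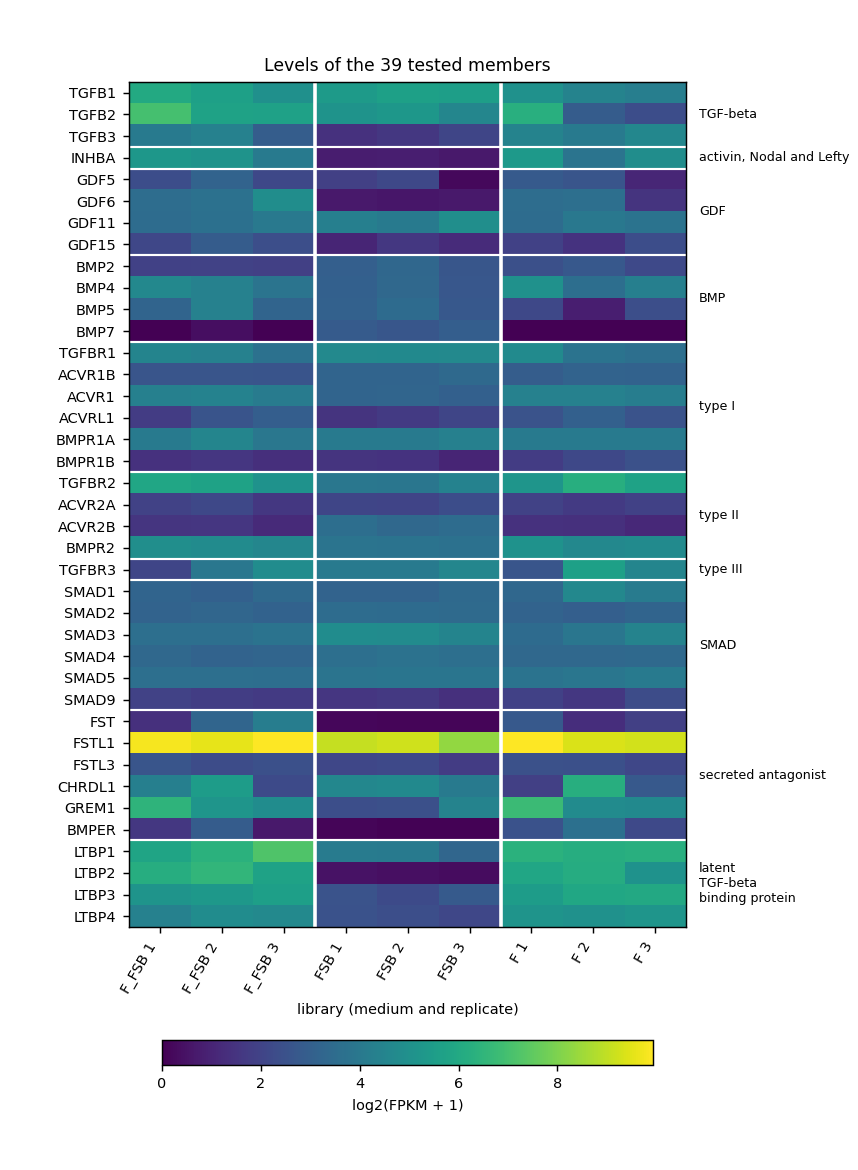
log2(FPKM + 1) of the 39 tested members (rows, grouped by role) in the 9 libraries (columns: F_FSB, FSB and F, replicates 1 to 3). LTBP2, INHBA, GDF6, FST and BMPER are dark in the 3 FSB columns, where all were under 1 FPKM, and BMP7 is dark in the other 6.

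The comparison of F_FSB with F asks whether cells with an earlier period of inhibitor differed at harvest from cells that had none after the sort. None of the 39 members passed with limma, beside 1 of the 13216 genes (0.00757%). At an unadjusted limma p under 0.05 there were 10 of 39 (25.6%), beside 9.04% of all genes. The smallest p was that of ACVR1B, whose F_FSB libraries (5.05 to 5.14 FPKM) lay below its F libraries (6.7 to 7.85 FPKM), with a change of −0.46 (SE 0.09, 95% confidence interval −0.67 to −0.26, limma unadjusted p = 0.000785, adjusted p = 0.344). BMP5 differed by 1.81 (limma adjusted p = 0.458), TGFB2 by 2.30 (limma adjusted p = 0.542) and TGFB1 by 1.00 (limma adjusted p = 0.501).

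Groups did not overlap for 6 of the 39 members (15.4%), beside 13.0% of all genes. BMP5 was the 1 that was higher in F_FSB, beside 6.28% of all genes, and BMP2, ACVR1B, BMPR1B, SMAD5 and LTBP4 were lower, beside 6.76%. Between FSB and F the groups did not overlap for 27 of 39 (69.2%, beside 57.9% of all genes), and between F_FSB and FSB for 29 of 39 (74.4%, beside 55.8%). Without F replicate 1, 2 members passed in F_FSB against F, TGFB2 with 3.53 (limma adjusted p = 0.0298) and SMAD1 with −1.16 (limma adjusted p = 0.0452).

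The spread between libraries of a medium was smallest in FSB. The highest and lowest library differed by over 1 on the log2(FPKM + 1) scale for 14 of 39 members in F_FSB, 2 in FSB (GDF5 and GREM1) and 15 in F. Over all genes that share was 10.5% in F_FSB, 2.91% in FSB and 8.94% in F. TGFB2, GDF5, GDF6, BMP5, TGFBR3, FST, CHRDL1, GREM1, BMPER and INHBA exceeded a difference of 1 in both F_FSB and F. A gene under 1 FPKM in every library of a medium cannot exceed that difference. This held for LTBP2, INHBA, GDF6, FST and BMPER in FSB, and for BMP7 in F_FSB and F. BMPER varied 2.56-fold between FSB libraries, yet by 0.09 on this scale. The member counts are therefore partly fixed by low levels.

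A list of 77 other genes of the pathway, such as inhibitory SMADs, ubiquitin ligases, transcriptional partners and processing enzymes, had 73 genes in the tables and 51 tested. In FSB against F, 6 were higher and 15 lower (41.2%, beside 41.9% of all genes). In F_FSB against FSB, 15 were higher and 5 lower (39.2%, beside 41.8%), and none passed in F_FSB against F (6 at an unadjusted limma p under 0.05). HTRA1, a secreted protease that can cut matrix proteins, measured 485, 962 and 883 FPKM in F_FSB, 19.3, 20.8 and 7.67 FPKM in FSB, and 652, 627 and 533 FPKM in F. DCN, or decorin, a matrix proteoglycan that binds TGF-beta, measured 54.2, 134 and 98.5 FPKM in F_FSB, 2.84, 2.93 and 1.32 FPKM in FSB, and 79.5, 253 and 176 FPKM in F. Both were lower in FSB than in F, with log2 changes of −5.27 for HTRA1 (limma adjusted p = 9.89e-05) and −5.55 for DCN (limma adjusted p = 0.000178). They were higher in F_FSB than in FSB by 5.57 for HTRA1 (limma adjusted p = 9.41e-05) and 4.79 for DCN (limma adjusted p = 0.000321).

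The SMAD repressors SKI and SKIL and the feedback gene PMEPA1 were also lower in FSB. SKI was 39.7 to 44.8 FPKM in F_FSB, 20.4 to 23.4 in FSB and 43.6 to 48.2 in F, a change of −1.06 in FSB against F (limma adjusted p = 0.000144) and 0.92 in F_FSB against FSB (limma adjusted p = 0.00024). SKIL was 12.3 to 26.3 FPKM in F_FSB, 4.25 to 5.09 in FSB and 11.8 to 30.5 in F, with −1.85 in FSB against F (limma adjusted p = 0.00506) and 1.85 in F_FSB against FSB (limma adjusted p = 0.00468). PMEPA1 was 3.08 to 10.5 FPKM in F_FSB, 0.214 to 0.439 in FSB and 3.95 to 9.06 in F, with −2.25 in FSB against F (limma adjusted p = 0.00415) and 2.57 in F_FSB against FSB (limma adjusted p = 0.00227). WFIKKN1, a secreted protein that binds myostatin and GDF11, went the other way, at 0.0595 to 0.366 FPKM in F_FSB, 4.37 to 8.27 in FSB and 0 to 0.384 in F. Its change was 2.51 in FSB against F (limma adjusted p = 0.000263) and −2.43 in F_FSB against FSB (limma adjusted p = 0.000314), and it passed the filter through FSB libraries alone, so it had to differ.

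Inhibitory SMADs did not pass. SMAD7 was 8.17 to 13.9 FPKM in F_FSB, 5.74 to 6.34 in FSB and 5.65 to 13.8 in F, with −0.46 in FSB against F (limma adjusted p = 0.233) and 0.82 in F_FSB against FSB (limma adjusted p = 0.0518). In F_FSB against FSB, SMAD7 passed without F_FSB replicate 3 (1.04, limma adjusted p = 0.0292) and with median-ratio scaling (0.95, limma adjusted p = 0.028). At the same log2 change of 0.82 it passed without F replicate 1 (limma adjusted p = 0.019) or 2 (limma adjusted p = 0.0265), which bear on this comparison only through the shared spread. SMAD6 gave −0.43 in FSB against F (limma adjusted p = 0.247) and 0.58 in F_FSB against FSB (limma adjusted p = 0.129). The pseudoreceptor BAMBI gave 0.78 in FSB against F (limma adjusted p = 0.0813), and passed there without F replicate 3 (1.07, limma adjusted p = 0.026). The ubiquitin ligase genes SMURF1 and SMURF2 changed by −0.02 and 0.17 in FSB against F (limma adjusted p = 0.914 and 0.616).

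Of the 17 members under the filter, 16 had no library at 1 FPKM or more, with a highest value of 0.923 FPKM, and NOG reached 2.2 FPKM. They comprised 13 of the 25 ligands, ACVR1C, TDGF1 and the antagonists NOG and CHRD. GDF3 was listed at 0 in every library. INHBA, GDF6, FST, BMPER and LTBP2 passed the filter through F_FSB and F libraries alone, so some difference from FSB was a condition of their being tested. At this depth such low values do not show that a gene was absent. BMP8A and BMP8B, at most 0.17 FPKM, are near-identical copies whose fragments may be split.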

How the data were processed

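Total RNA of 9 cultures was sequenced after strand-specific library preparation, per the labels. The authors deposited 1 Cufflinks gene table per library with FPKM values and Cufflinks' interval, per the file headers. TopHat2 2.0.12, Cufflinks 2.1.1 and GRCh37 are named in the submitters' processing notes. Options, annotation and use of strand in counting were not given in the sources used here. The 15 of 56 members whose spans overlap another locus are therefore uncertain, and so are near-identical copies. FPKM is scaled within each library, so a few very abundant genes can shift the FPKM of all others. No 2 tables were identical (at most 0.00525% of nonzero values were equal). Depth was estimated in relative terms from olfactory receptor genes, whose densest cluster of values was taken as that of 1 fragment. Values that looked like shares of 1 fragment were dropped first. The cluster held 2 to 8 genes per library, with 2 in F_FSB replicate 1. The median half-width of Cufflinks' interval for a member, such as 4.71% for TGFBR1 and 27.9% for FST, covers fragment counting and assignment within a library, not the spread between cultures.

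Loci with a status other than OK in any library (95) were left out, and the filter on low values was applied (FPKM of 1 in 3 libraries). The limma package, version 3.58.1 (R 4.3.3), was fitted to log2(FPKM + 1), all 9 libraries in 1 fit of 3 group means with a mean-variance trend, two-sided, with Benjamini-Hochberg adjustment over all genes tested. The code was tested on simulated data. Tables were joined in Python 3.11.15 with pandas 2.3.3 and numpy 2.4.6 and drawn with matplotlib 3.10.9. The members, the list of other pathway genes, the markers and the tests were chosen with earlier results of these data known. Values per library are given for members that passed in FSB against F or F_FSB against FSB and averaged at least 5 FPKM in some group, for the 3 targets of SB431542 and for the 6 SMADs. Named pathway genes are the 4 with the smallest adjusted p in either comparison and 7 feedback genes. TGFB2 and NOG, given per library, were added after their values were seen. Correlations of deviations from the group means ran from −0.136 to 0.292 between same-numbered libraries and from −0.23 to 0.127 between the others. The largest was that of F_FSB replicate 1 with F replicate 1. The labels do not say whether a replicate number marks a shared culture, and the main fit did not pair libraries. Alternatives were another pseudocount, no filter, 3 other scalings, a replicate block, a fit of the compared groups only, no trend, and leaving out each library.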

Additional observations from a re-analysis of the deposited data

How the results depend on the processing

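Every one of the 17 alternatives kept the direction of each called member. The calls of 13 of the 23 members in FSB against F and of 18 of the 26 in F_FSB against FSB passed under all 17. The lost calls named gene by gene are not complete lists. With no filter, TGFB1, GDF11, BMP2, BMP4, ACVRL1, SMAD3 and GREM1 missed in FSB against F (limma adjusted p of 0.0669 to 0.107). GDF11, BMP4, FSTL1, FSTL3, GREM1 and BMPER missed in F_FSB against FSB (limma adjusted p of 0.0765 to 0.119). The 8 members higher in FSB than in F became 3 with scaling by median ratios, 4 with quantile normalization and 4 with scaling to the same sum. Over all genes the 3763 higher in FSB than in F became 2452 with median ratios and 2286 with the same sum, and the 1805 higher in F_FSB than in FSB became 1176 with the same sum. The 1 gene lower in F_FSB than in F became 2 with no filter and 0 with the replicate block. Scaling to the same sum divides by sums that include MIR4461, at 111389 FPKM in F_FSB replicate 2. The cause of these shifts was not tested. Leaving out 1 library gave 4 to 7 members higher and 12 to 16 lower in FSB against F, 12 to 17 higher and 6 to 9 lower in F_FSB against FSB, and 0 to 1 in each direction in F_FSB against F. Over all genes it gave 2644 to 3948 higher and 1191 to 1832 lower in FSB against F, 1255 to 1789 higher and 2766 to 3642 lower in F_FSB against FSB, and 0 to 48 higher and 0 to 29 lower in F_FSB against F. With the replicate block, 8 members were higher and 14 lower in FSB against F, and 18 were higher and 7 lower in F_FSB against FSB. GREM1 missed in FSB against F under the replicate block (limma adjusted p = 0.0527), SMAD2 and SMAD5 missed in F_FSB against FSB (limma adjusted p = 0.0652 and 0.0696), and GDF5 passed there (limma adjusted p = 0.0331). Having 3 libraries per medium and no counts limits what can be said of low genes such as ACVR1C, and leave-one-out fits assume that a group of 2 varies like the others.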
